A study of Mus musculus with 4 samples.

Results

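The genes described are 34 genes of B cell identity and B cell receptor signalling, measured in CD4 cells from mice that were wild type or sanroque. The members were given as a list, and a gene counted as measured where a probe set of the deposited table was annotated to it alone. That held for 31 of 34 members, with 48 probe sets, among the 12393 genes that the array's annotation names in this way. Lyn, Cd38 and Bank1 were not matched and are not analysed here. Of the 48 probe sets, 40 from 29 genes were bright enough to be tested.

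B cells read antigen through a membrane immunoglobulin that signals by way of the Cd79a and Cd79b chains. The kinases Lyn, Syk, Blk and Btk, the adaptor Blnk and the phospholipase Plcg2 carry that signal onward, and Cd22, Cd72 and the phosphatase Ptpn6 restrain it. Pax5 and Ebf1 are the transcription factors that fix B cell identity. T cells lack most of the B cell specific members, while members such as Syk, Cd83 or Ptpn6 are also made by myeloid cells or T cells.

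RNA came from CD4 cells of +/+ (wild type) and san/san (sanroque homozygous) mice, with 2 Affymetrix MOE430A arrays per genotype. Sanroque is a recessive line from a mutagenesis screen in which C57BL/6 males were treated with the chemical mutagen ENU, and was found through antinuclear autoantibodies present by 12 weeks of age; the mutated gene is Rc3h1, which encodes Roquin-1, an RNA-binding repressor of mRNAs. No treatment of the mice that were assayed, and no age or sex of theirs, is given in the sources used here. The 2 number 1 arrays were hybridised and scanned on day 1 and described in their experiment information as sorted T cells; the 2 number 2 arrays, run on day 2, carry no such words, and wild type 2 carries the letters CBA, which nothing explains. If these letters name a strain, a strain difference cannot be told apart from the mutation on day 2. Wild type 2 also enters every pooled fold change and both fits described below. Nothing says that arrays of a genotype came from separate mice, so the p-values cover array-to-array spread alone, and that spread may be technical.

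The deposited values are linear signals whose trimmed mean was close to 100 on every array (99.59 to 99.97), with medians of 30.8 to 40.4. Fold changes are differences of log2(signal + 6), sanroque minus wild type, tested with limma over 13579 probe sets and adjusted by the Benjamini-Hochberg method. A member gene is represented by its brightest tested probe set. Another fit takes the hybridisation day as a block, which leaves the fold changes as they are and alters their standard errors. Rose or fell with the block means that a gene passed in that fit, as higher or lower. The block leaves almost no spread within a probe set to estimate from. Its p-values therefore rest mainly on the variance that limma shares over probe sets, and can be low where the days differ widely. With 2 arrays per genotype the precision was limited, and the 95% intervals of the tested members reached 0.38 to 0.79 to either side of the log2 fold change.

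The promoters below are shown because Pou2f2 (Oct-2), the member with the widest difference, binds the octamer ATGCAAAT, an element long known from immunoglobulin promoters. They are the 250 bases before the start that RefSeq gives in the GRCm38.p6 build, which holds windows for 26 of the 34 members but none for Cd83. Matches to the octamer on either strand are in capitals; on the gene's own strand both read ATTTGCAT.
Vpreb3, chr10:75948050-75948299, plus strand: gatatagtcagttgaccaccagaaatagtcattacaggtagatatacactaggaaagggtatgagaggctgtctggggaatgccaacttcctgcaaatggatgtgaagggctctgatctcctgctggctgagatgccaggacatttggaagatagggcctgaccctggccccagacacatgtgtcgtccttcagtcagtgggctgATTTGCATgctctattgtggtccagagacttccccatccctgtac
Blnk, chr19:40994222-40994471, minus strand: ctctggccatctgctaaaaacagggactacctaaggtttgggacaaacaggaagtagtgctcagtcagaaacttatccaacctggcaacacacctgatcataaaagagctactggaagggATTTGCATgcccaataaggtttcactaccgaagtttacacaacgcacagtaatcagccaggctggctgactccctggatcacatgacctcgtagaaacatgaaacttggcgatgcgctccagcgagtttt
Pou2f2, chr7:25132461-25132710, minus strand: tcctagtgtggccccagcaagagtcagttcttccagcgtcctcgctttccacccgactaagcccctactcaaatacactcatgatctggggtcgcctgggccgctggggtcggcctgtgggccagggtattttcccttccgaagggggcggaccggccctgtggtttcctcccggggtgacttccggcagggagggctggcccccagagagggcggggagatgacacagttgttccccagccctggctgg
Swap70, chr7:110221453-110221702, plus strand: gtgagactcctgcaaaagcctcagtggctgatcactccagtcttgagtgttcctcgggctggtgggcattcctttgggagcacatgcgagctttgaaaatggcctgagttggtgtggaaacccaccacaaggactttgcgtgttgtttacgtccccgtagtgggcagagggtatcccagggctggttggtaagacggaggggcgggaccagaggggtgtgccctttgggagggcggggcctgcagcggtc

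The octamer was found in the windows of 2 of the 26 members, Vpreb3 and Blnk, and in 1.60% of all 32851 windows of that length. Its last base lay 38 bases before the start in Vpreb3 and 123 bases before it in Blnk. The core CCCNNGGG bound by Ebf1 occurred in 4 member windows, those of Bank1, Cd22, Cd55 and Spib, and in 11.8% of all windows. The purine-rich motif GAGGAAGT of ETS factors such as Spib occurred in those of Cd37 and Cd72 and in 2.44% of all. Each motif was searched on both strands, and a match describes letters only. The 26 members have 31 windows, so counts by gene and shares by window differ in unit.

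The T cell reference genes Cd4 and Cd3e were level between the genotypes by their brightest probe sets. Cd4, the co-receptor that defines the cells, had signals of 533.3 and 613.5 on wild type arrays 1 and 2 and of 585.9 and 570.2 on sanroque arrays 1 and 2. Its log2 fold change was 0.01 (standard error 0.171, limma adjusted p = 0.991), and the genotypes overlapped. Cd3e, a chain of the T cell receptor complex, had 851.4 and 755.3 in wild type and 849.2 and 833.1 in sanroque, a log2 fold change of 0.07 (standard error 0.17, adjusted p = 0.957). A second Cd4 probe set was lower on both sanroque arrays, at 211.1 and 237.4 against 277.2 and 254.7, a log2 fold change of -0.24 (limma adjusted p = 0.751). Of 14 tested T cell markers 10 had a fold change below 0 and 4 above, and none passed in either fit. Both sanroque arrays were below both wild type arrays in 3 and above in 1, against 17.7% and 21% of all probe sets. Cd247 (-0.41, limma adjusted p = 0.425) and Cd5 (-0.38, 0.488) were among the 3, named after their values were seen.

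No tested gene mainly of B cells passed in the fit without the day, and their summed signals overlapped between genotypes; detection calls were not used here. Of the 16 such members 15 were matched and 13 tested, and 0 of the 13 were called by limma, against 1.06% of all probe sets tested; 1 of 13, Cr2, had an unadjusted p under 0.05. Pax5 and Ebf1 were matched and too dim to test. The summed signal of the genes mainly of B cells, over the brightest probe set of each of the 15, was 1951 and 1967 in wild type and 1868 and 2003 in sanroque. The median log2 fold change of the 13 was -0.035, beside 0.015 over all probe sets tested and -0.09 over 14 T cell markers. For 12 of the 13 the 95% interval stayed within a 2-fold change in either direction, as it did for 73.5% of all probe sets tested; Cr2 was the exception.

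**Figure D1:**
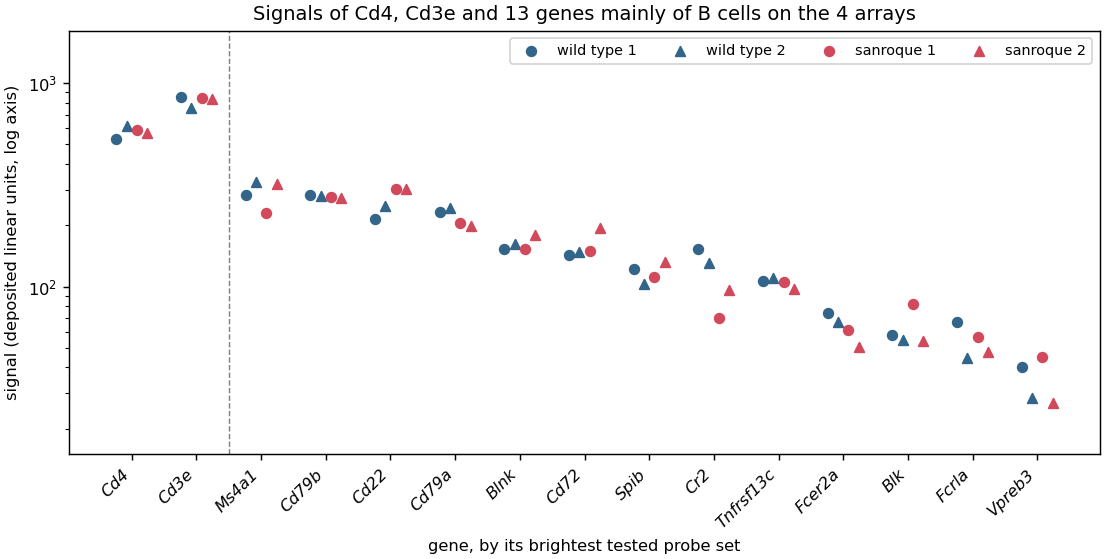
Signal in deposited linear units (log axis) of Cd4, Cd3e and the 13 tested genes mainly of B cells, each by its brightest tested probe set. Circles are number 1 arrays (day 1), triangles number 2 arrays (day 2), blue wild type and red sanroque. For most genes the 4 points lie close together; the sanroque points of Cr2 (70.1 and 96.7) lie below those of wild type (152.4 and 130.5).

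The antigen receptor chains were close to level. Cd79b read 281.1 and 280.3 in wild type and 276.2 and 271.6 in sanroque, with a log2 fold change of -0.035 (95% interval -0.41 to 0.34, adjusted p = 0.979). Both sanroque arrays were thus below both wild type arrays, by a few units only. Cd79a, its partner chain, read 231.3 and 244.1 against 205.9 and 198, with a log2 fold change of -0.23 (95% interval -0.61 to 0.16, standard error 0.175, adjusted p = 0.763). Again the genotypes did not overlap, yet the difference did not pass. Such separation is common with so few arrays: 38.7% of all probe sets tested had both sanroque arrays outside the wild type range (21% above and 17.7% below), against 18 of the 29 tested members (10 above and 8 below) and 7 of the 13 mainly of B cells (2 above and 5 below).

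The co-receptors differed among themselves. Cd22, a sialic acid-binding inhibitor of the B cell receptor, had the highest log2 fold change of the genes mainly of B cells, at 0.38 (95% interval -0.01 to 0.77, standard error 0.176, adjusted p = 0.516). Its signals were 214.4 and 247.8 in wild type and 301.8 and 302 in sanroque, without overlap, and its dimmer probe set leaned the same way at 0.23. Cd72, another inhibitory receptor, read 142.9 and 147.6 against 150.2 and 194.3 (log2 fold change 0.23, adjusted p = 0.811), where sanroque 2 stood apart.

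Cr2 was the lowest of the group. It encodes the complement receptor CD21, which lowers the threshold of B cells for complement-coated antigen and in mice also yields CD35. Cr2 read 152.4 and 130.5 in wild type (141.4 ± 15.5, SD, n = 2) and 70.1 and 96.7 in sanroque (83.4 ± 18.8, SD, n = 2). The genotypes did not overlap, and the log2 fold change was -0.73 (standard error 0.22, adjusted p = 0.216), -1.06 on day 1 and -0.41 on day 2. With the hybridisation day as a block it passed as lower, at the same fold change (adjusted p = 0.0127). None of the other members of the receptor group passed with the block, and 6.27% of all probe sets did.

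Fcrla, an intracellular Fc receptor-like protein of B cells, and Vpreb3, a chaperone of immunoglobulin assembly whose octamer-bearing promoter is printed above, were dim. Vpreb3 read 40.4 and 28.3 in wild type and 44.8 and 26.9 in sanroque (log2 fold change 0.04, 95% interval -0.75 to 0.82), so both day 2 arrays were the lower ones. The probe sets of Fcrla disagreed in sign, at -0.07 and 0.35, and neither passed (adjusted p = 0.974 and 0.751).

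Among the other surface proteins, Cd83 stood apart. It marks activated dendritic cells, B cells and T cells. Cd83 read 75.1 and 109.9 in wild type (92.5 ± 24.6, SD, n = 2) and 191.7 and 190.5 in sanroque (191.1 ± 0.849, SD, n = 2). Both sanroque arrays lay above both wild type arrays, with a log2 fold change of 1.02 (standard error 0.217). It missed the threshold in the fit without the day (adjusted p = 0.057) and passed once the day entered as a block (adjusted p = 2.1e-04), at the same fold change. The day 1 difference was 1.29 and the day 2 difference 0.76. It passed without wild type array 2, at 1.28 (adjusted p = 0.0064), and did not pass when any other array was left out (0.101 to 0.142).

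Cd55, which encodes the decay-accelerating factor that protects cells from complement, was lower by both of its own probe sets. The brighter read 149.7 and 135.2 in wild type and 95.1 and 94.3 in sanroque, without overlap, with a log2 fold change of -0.56 (standard error 0.193, adjusted p = 0.326, and 0.0514 with the day block). The other read 144.8 and 75.7 against 64.9 and 46.1, a log2 fold change of -0.87 (limma adjusted p = 0.332), and fell with the block (adjusted p = 0.00496). Wild type 1 is high there, which made the wild type SD 48.9 around a mean of 110.2.

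The remaining surface proteins did not pass in either fit. Ms4a1, which encodes CD20, read 283.5 and 325.8 in wild type and 230.6 and 319.1 in sanroque (log2 fold change -0.16, adjusted p = 0.889); its dimmer probe set had -0.38. Fcer2a, the low-affinity IgE receptor CD23, had -0.32 and Tnfrsf13c, the receptor for the survival factor BAFF, had -0.09. The Toll-like receptor relative Cd180 read 44.4 and 34.5 against 74.2 and 47.4 (log2 fold change 0.53, standard error 0.297, adjusted p = 0.625; 0.24 without sanroque array 1 and 0.83 without sanroque array 2), and its partner Ly86, also known as MD-1, read 160 and 186.4 against 220.7 and 207.6 (0.30). Neither pair overlapped between genotypes. All 3 probe sets of Cd24a, a glycoprotein of immature B cells and many other cells, leaned higher, at 0.26 to 0.48. Cd40, the receptor for T cell help, had -0.33 by its brighter and 0.08 by its dimmer probe set, and the tetraspanin gene Cd37 had -0.26 and 0.002; neither gene passed by either probe set.

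**Figure D2:**
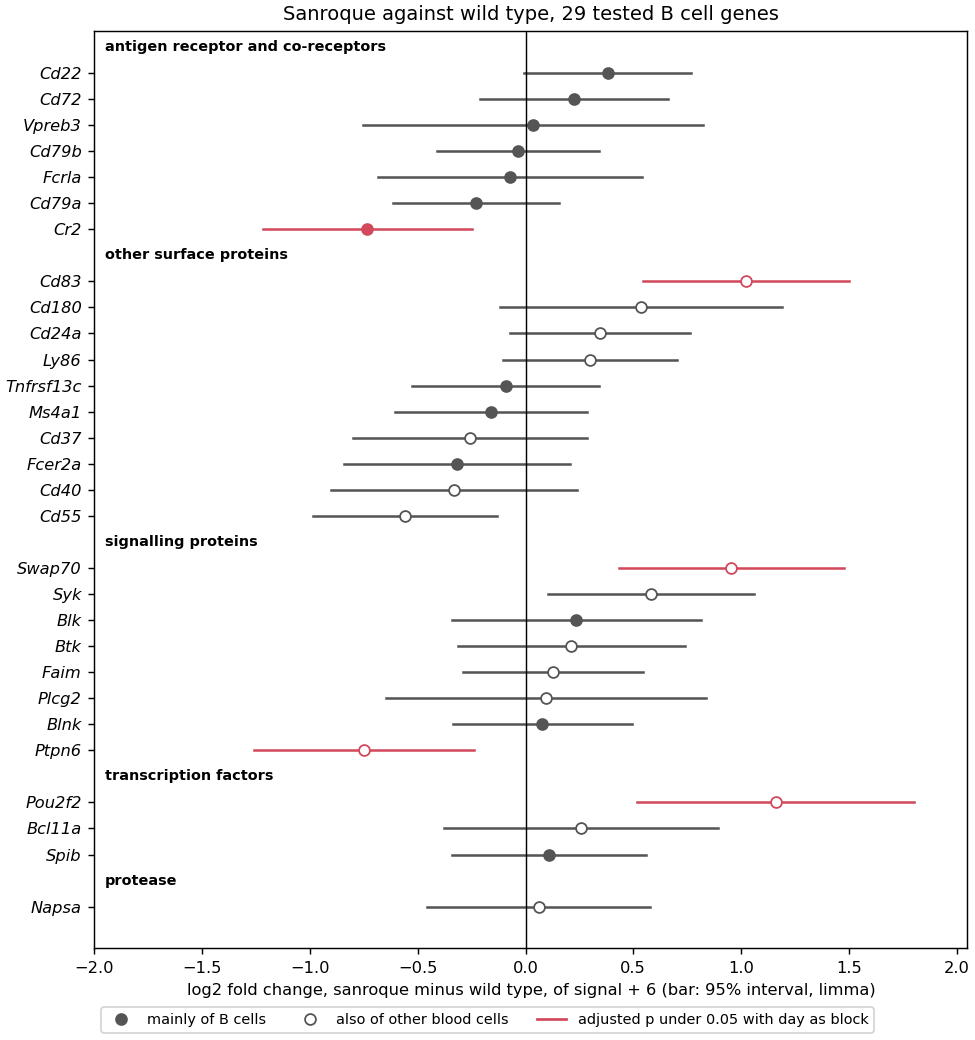
Log2 fold change (sanroque minus wild type, of signal + 6) of the 29 tested members with its 95% limma interval, by role. Filled points are genes mainly of B cells, open points genes also of other blood cells, and red marks an adjusted p under 0.05 with the day as a block. The red genes are Cd83, Pou2f2 and Swap70 on the higher side and Cr2 and Ptpn6 on the lower.

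Of the signalling proteins, Swap70 had the highest fold change. It is a Rac-binding protein of activated B cells, mast cells and dendritic cells. Swap70 read 50.4 and 61.3 in wild type (55.9 ± 7.71, SD, n = 2) and 96.6 and 133 in sanroque (114.8 ± 25.7, SD, n = 2), without overlap. The log2 fold change was 0.95 (standard error 0.236, adjusted p = 0.111), 0.86 on day 1 and 1.05 on day 2, and it rose with the day as a block (adjusted p = 0.00136).

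Syk, the kinase recruited to the phosphorylated receptor chains, was higher on both sanroque arrays by each of its 3 probe sets. The brightest read 59.6 and 63.8 in wild type and 89.3 and 101.5 in sanroque, with a log2 fold change of 0.58 (standard error 0.216, adjusted p = 0.38, and 0.0703 with the block). Its within-day differences were near equal, 0.54 and 0.62. The next probe set had 0.66 (adjusted p = 0.378, and 0.0507 with the block). Syk therefore passed in neither fit.

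Ptpn6, which encodes the inhibitory phosphatase SHP-1 of all blood cells, gave unlike readings by its 2 probe sets. The brighter read 582.8 and 585.9 in wild type and 264.9 and 448 in sanroque, a log2 fold change of -0.75 (standard error 0.231, adjusted p = 0.236) that fell with the block (adjusted p = 0.00245). The sanroque arrays differed widely from each other, so the difference was -1.12 on day 1 and -0.38 on day 2. The standard error with the block was 0.16 all the same, because it rests mainly on the variance shared over probe sets. Without sanroque array 2 the brighter probe set passed, at -1.12 (adjusted p = 0.0381), and without sanroque array 1 it had -0.38 (adjusted p = 0.953). The other, whose x suffix marks probes shared with other transcripts, read 444.8 and 268.8 against 501.3 and 218.2, a log2 fold change of -0.06 (adjusted p = 0.98).

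The rest of the cascade did not pass in either fit. Blnk, which links Syk to its substrates and carries the other octamer printed above, read 152.3 and 161.5 in wild type and 152.6 and 180 in sanroque (log2 fold change 0.08, 95% interval -0.34 to 0.49). The Src-family kinase Blk had 0.24, Btk, the kinase lost in X-linked agammaglobulinaemia, had 0.21, Plcg2 had 0.09 and the apoptosis inhibitor Faim had 0.13. Plcg2 varied widely between arrays of a genotype, at 156.5 and 64.3 in sanroque.

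Pou2f2 had the highest log2 fold change of all tested members. It read 36.5 and 26.8 in wild type (31.6 ± 6.86, SD, n = 2) and 94.3 and 63.5 in sanroque (78.9 ± 21.8, SD, n = 2), without overlap, a log2 fold change of 1.16 (standard error 0.291, 95% interval 0.52 to 1.80, adjusted p = 0.115). It was 1.24 on day 1 and 1.08 on day 2, and Pou2f2 rose with the day as a block (adjusted p = 0.00117). Its second probe set read 26.6 and 14.2 against 51.5 and 28.3, with a log2 fold change of 0.79 that did not pass in either fit (adjusted p = 0.609, and 0.144 with the block). The wild type mean of that probe set, 20.4, lay under the 21.3 required for testing. It was tested through its sanroque signals and is no separate support for Pou2f2. The brighter set carries the x suffix as well. Without wild type array 1 Pou2f2 passed, at 1.35 (adjusted p = 0.0193), and did not pass when any other array was left out (0.101 to 0.608).

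The other transcription factors did not pass or were not tested. Spib, an ETS factor of B cells and plasmacytoid dendritic cells, read 122.2 and 102.7 in wild type and 110.8 and 132.5 in sanroque (log2 fold change 0.11, standard error 0.204, adjusted p = 0.937), and its sign turned when wild type array 2 (-0.01) or sanroque array 2 (-0.02) was left out. Bcl11a, a zinc finger repressor of early B cells and dendritic cells, had 0.26 (standard error 0.288, adjusted p = 0.874), and 0.02 without sanroque array 1 against 0.49 without sanroque array 2. Pax5 and Ebf1 were below the signal required for testing on average, with Pax5 at 3.8 to 11.9 and the 3 Ebf1 probe sets at 9.6 to 27 across the arrays. The aspartic protease Napsa, which is also made in lung and kidney, read 87.9 and 130.3 against 100.7 and 124.4 (0.06, standard error 0.234, adjusted p = 0.974). Its sign turned without wild type array 1 (-0.21) or sanroque array 2 (-0.08) and under median centring of the arrays (-0.03).

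**Figure D3:**
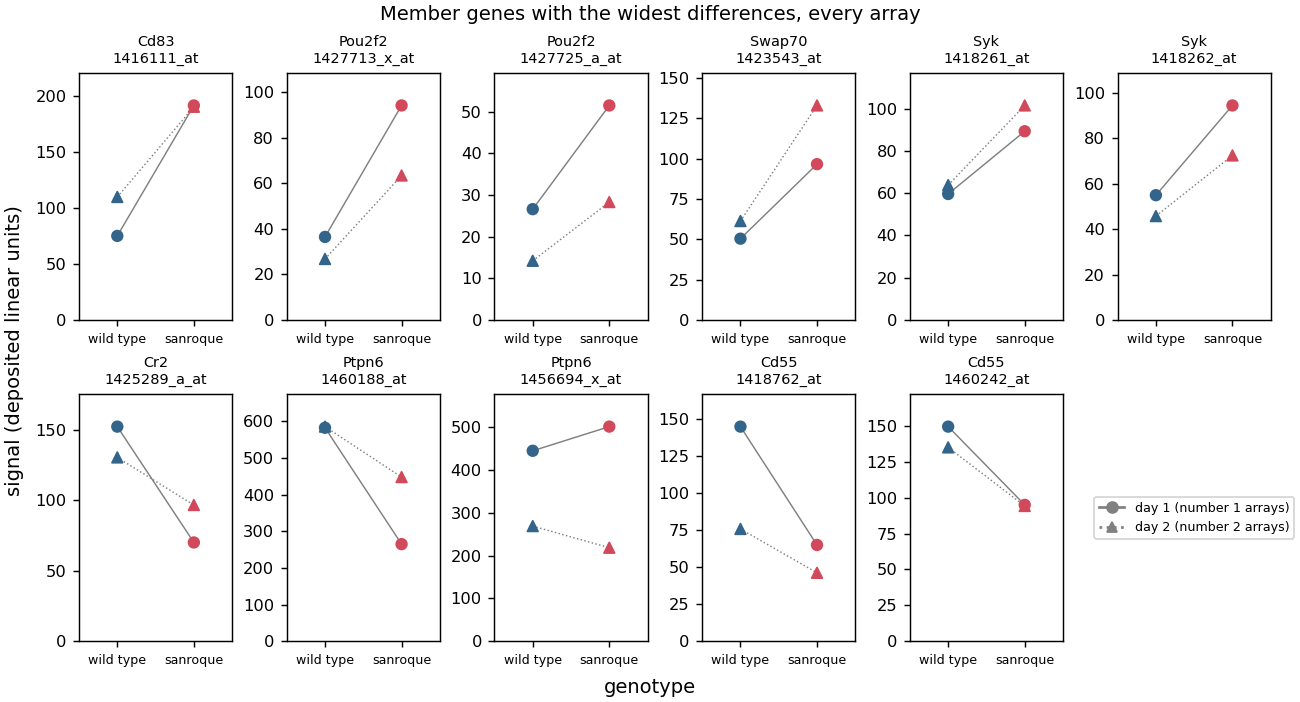
Signal in deposited linear units (axis from 0) on every array for the members with the widest differences, 1 panel per probe set, with lines joining the arrays of a day (circles and solid lines day 1, triangles and dotted lines day 2). Cd83, Pou2f2, Swap70 and Syk are higher in sanroque on both days, Cr2 and Cd55 lower, and the probe sets of Ptpn6 differ from each other. The dimmer Pou2f2 probe set was bright enough to be tested through its sanroque signals alone.

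As a count, 0 of the 29 tested members passed the limma test without the day, against 1.06% of all probe sets tested (0.67% higher and 0.39% lower); 7 of 29 (24.1%) had an unadjusted p under 0.05, against 9.89%. With the day as a block 5 of 29 (17.2%) passed, 3 higher and 2 lower, against 6.27% of all probe sets (3.59% higher and 2.68% lower). Cr2 was the only such gene among the 13 mainly of B cells (7.69%), and Cd83, Pou2f2, Swap70 and Ptpn6 were among the 16 that other blood cells also make (25%). The median log2 fold change of those 16 was 0.23, with 12 above 0 and 4 below, and that of the 13 was -0.035, with 6 above and 7 below; the difference between the sets was not tested. A lower signal of a B cell gene in bulk RNA can mean fewer B cells or less of that RNA per cell, and these cannot be told apart.

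Over the 13 tested genes mainly of B cells, the median difference of array 2 minus array 1 was -0.004 in wild type and -0.02 in sanroque on the log2 scale, beside -0.06 and -0.03 over all probe sets tested. Single genes went either way: in sanroque Ms4a1 was higher on array 2 (319.1 against 230.6) and Blk lower (54.1 against 82.4). The median absolute difference between arrays of a genotype was 0.24 for the tested members and 0.25 for all probe sets tested. The sanroque minus wild type median over these genes was -0.02 on day 1 and -0.03 on day 2. Subtracting the T cell marker median from that of the B cell genes gave 0.05.

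Of 23 further B lineage genes 17 were matched and 15 tested. Cxcr5, the receptor for entry into B cell follicles that follicular helper T cells also carry, was the gene that passed, 1 of 15 (6.67%) against 1.06% of all probe sets; it read 80.5 and 94.5 in wild type and 232.8 and 197.6 in sanroque (log2 fold change 1.24, adjusted p = 0.0133). Its call ended with no filter and without the variance trend. With the block 3 rose (20%, against 3.59% of all probe sets). The others were Irf8, a transcription factor of B and myeloid cells (0.74, adjusted p = 0.105, and 0.00283 with the block), and Dtx1, a regulator of Notch signalling in B and T cells (0.61, adjusted p = 0.216, and 0.00597 with the block). Both sanroque arrays were above both wild type arrays in 8 of the 15 and below in 1, against 21% and 17.7% of all probe sets, and the median was 0.26. Of the 15, 11 had a fold change above 0 and 4 below, and 7 (46.7%) had an unadjusted limma p under 0.05, against 9.89%. Among these 7 were Tnfrsf13b (0.52), Ccr6 (0.51), Pou2af1 (0.48) and Fcrl1 (0.47), named after their values were seen. Those genes passed in neither fit (limma adjusted p = 0.415 to 0.501 without the block). Without wild type array 1, 3 of the 15 rose, and 2.62% of all probe sets were called.

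Of 35 further genes of the antigen receptor pathway, many shared with T cells, 30 were matched and 27 tested. Nfatc1, a calcium-regulated transcription factor, rose from 188.8 and 150.9 to 336.4 and 352.1 (log2 fold change 1.00, adjusted p = 0.0298), and no other gene passed (3.70%, against 1.06% of all probe sets). Median centring, no filter and no variance trend each left 0 calls. Leaving out sanroque array 1 or 2 or wild type array 2 left 0 calls, and leaving out wild type array 1 gave 2. With the block 3 were called (11.1%, against 6.27%). Prkcb, the protein kinase C of the NF-kB branch, rose too (0.50, adjusted p = 0.0312), and the adaptor Sh3bp2 had 0.50 and did not pass. Cbl, named after its values were seen, was called lower with the block (adjusted p = 0.0101), although only wild type array 2 was high, at 307.3 against 48.3 to 51 on the others. The median of the 27 was 0.24.

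Markers of the stages on either side of the mature B cell showed no call in either fit. None of 3 tested early B genes, 4 germinal centre B genes or 5 plasma cell genes passed. Their medians were -0.28, 0.06 and 0.26. The early B median is the value of Il7r, at 1645.2 to 2193 across the arrays, above Cd4 and Cd3e on each. It is therefore no reading of an early B stage alone. The other tested early B genes, Igll1 and Dntt, were dim, at 5.7 to 40.5. Jchain, which joins polymeric immunoglobulin, read 471.2 and 521.2 in wild type and 399.5 and 354.5 in sanroque (-0.39, adjusted p = 0.49). Prdm1, a plasma cell factor also made by T cells, had 0.52 (adjusted p = 0.569) and Xbp1, a secretory pathway factor, had 0.26 (adjusted p = 0.731).

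Myeloid markers leaned higher in sanroque, and some of them passed. Of 14 markers all were matched and 12 tested. Of these 4 rose (33.3%, against 0.67% of all probe sets), 7 rose with the day block (58.3%, against 3.59%), and 12 had a fold change above 0, with a median of 0.84. Their summed signal was 1304 and 1378 in wild type and 2827 and 2830 in sanroque, and no marker was listed at 0. Ngp, a granule protein of neutrophils, had 2.20 (adjusted p = 3.29e-04) and the lysozyme gene Lyz2 1.61 (adjusted p = 7.97e-04). The granule peptide gene Camp, among the 7, had 2.02, which did not pass without the block (adjusted p = 0.0782) and rose with it (1.86e-04). Its wild type mean of 10.85 lay under the 21.3 required for testing. Camp was thus tested through its sanroque signals alone, and its call is no support for a rise. The block also added Ltf (1.30, adjusted p = 0.00122), another granule protein gene, and the growth factor receptor gene Csf1r (0.50, adjusted p = 0.0389), both named after their values were seen. S100a8 (1.28, limma adjusted p = 0.00716) and S100a9 (1.18, 0.00957) also passed without the block. Cd14 (0.15), Cd68 (0.19) and Adgre1 (0.48) overlapped between the genotypes, while Fcgr3 (0.48) was above without overlap. None of Cd14, Cd68, Adgre1 and Fcgr3 passed in either fit. Itgam and Elane were near the low end, at 8.9 to 18.8 and 1.3 to 3.4. The part of myeloid RNA in the higher signals of Cd83, Pou2f2, Swap70, Syk, Cd180, Ly86 and Irf8 was not tested. Of the 16 tested members that other blood cells also make, 8 (50%) were above without overlap, 3 (18.75%) below and 5 overlapped. Over all probe sets tested, 21% were above and 17.7% below. Summed dendritic cell markers were 306.3 to 315 in wild type and 289.5 to 308.4 in sanroque, with none of 4 tested passing, and none of 9 tested CD8 T or NK markers or 4 red cell and platelet markers passed without the block. With it 2 of each rose, against 3.59% of all probe sets. They were Nkg7 (0.79, adjusted p = 0.00519) and Eomes (1.25, adjusted p = 9.5e-04), and Alas2 (0.63, adjusted p = 0.00383) and Slc4a1 (0.72, adjusted p = 0.00481), named after their values were seen.

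**Figure D4:**
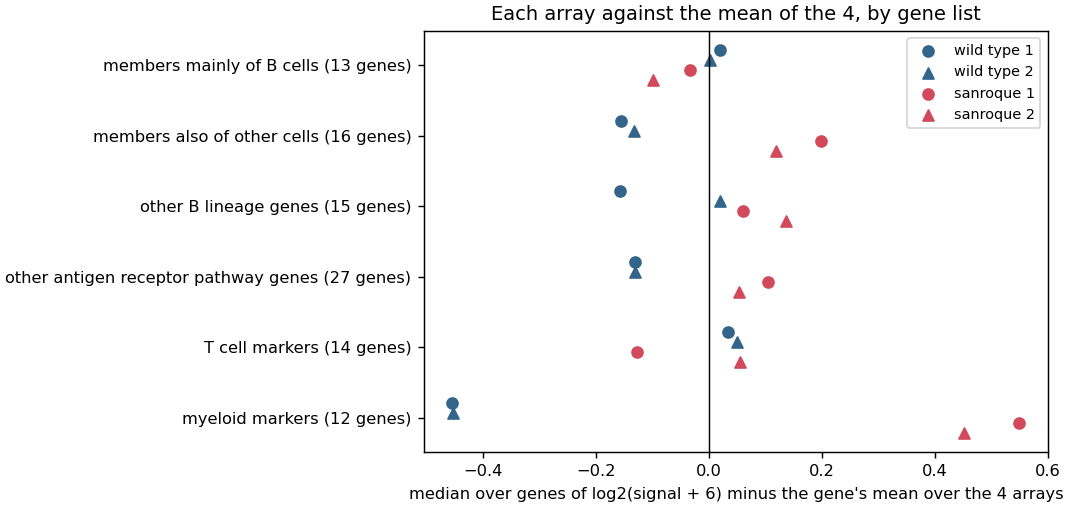
Median over the tested genes of a list of log2(signal + 6) minus that gene's mean over the 4 arrays, for each array (blue wild type, red sanroque, circles day 1, triangles day 2). The genes mainly of B cells lie between -0.10 and 0.02 on every array, while the myeloid markers lie at -0.45 on both wild type arrays and at 0.55 and 0.45 on the sanroque arrays.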

How the data were processed

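The deposited table gives 1 linear intensity per probe set and array, and its trimmed means show that the authors' values were scaled to a common mean; how probes were summarised and background removed is not given in the sources used here. Chip type, sample type and day are given per the file headers. Probe sets were named through the platform annotation, updated by gene identifier through RefSeq: 20380 had 1 symbol, 691 several and 1555 others none. The pseudocount of 6 is the rounded 20th percentile of the table. Controls (64) and probe sets whose mean signal lay under 21.3, the 40th percentile, were not tested. Limma 3.58.1 (lmFit, eBayes with a variance trend, R 4.3.3, two-sided, threshold 0.05) compared genotypes without covariates. That fit was also run on simulated arrays that held no day effect. The simulation therefore says nothing about the fit with the day block. Same-numbered arrays share their day, so the numbers pair the arrays; their deviations from the genotype mean correlated at 0.392. Members, lists and the naming rule (Cd4, Cd3e, members called with or without the block, and the 3 widest per role) were chosen with earlier results of these data known. The octamer and the other motifs were chosen with the values in view. In all 14 alternatives were run. Plots used matplotlib 3.10.9 (Python 3.11.15).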

Additional observations from a re-analysis of the deposited data

Results flagged for a closer look

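Probe sets of members that were too dim to be tested, or shared with another gene, were inspected for signals above those of both wild type arrays. The dimmest Syk probe set read 22 and 23.8 in sanroque (mean 22.9) against 16.8 and 18.2 in wild type. A dim Fcer2a probe set read 13.2 and 16 in sanroque (mean 14.6) against 9.3 and 10.9, opposite in direction to the brighter Fcer2a probe set. A probe set shared by Cd55 and Cd55b read 4.4 and 4.6 in sanroque (mean 4.5) against 0.4 and 1.6, at the low end of the table. In the other direction, a dim Ebf1 probe set read 9.6 and 13.2 in sanroque against 17.8 and 17.3 in wild type.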

How the results depend on the processing

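The 14 alternatives changed 1 choice at a time. The table as a whole gave 144 calls; it gave 56 with no filter, 47 without the variance trend, 852 with the day as a block, and 105 to 356 with each array left out, where the lone array of a genotype is assumed to vary like the others. Tested members called went from 0 to 5 with the day block, to 1 when arrays were centred on Cd4, Cd3d, Cd3e and Cd3g, with the filter at the 60th percentile or with a gene's probe sets averaged, and were 0 to 1 with each array left out. That gene was Cd83 in those 3 settings (adjusted p = 0.0454, 0.0475 and 0.0232). The median of the tested members (0.094) was 0.0037 with each array centred on its own median, 0.12 with centring on the 4 T cell genes, and 0.047 to 0.19 with each array left out. For the genes mainly of B cells (-0.035) it was -0.13 and -0.0062 under those centrings, 0.035 with probe sets averaged, and -0.062 to 0.036 with each array left out. Their median minus that of the T cell markers was -0.078 to 0.13 with each array left out. Further B lineage genes called went from 1 to 0 with no filter or no variance trend, to 3 with the block, and to 1 to 3 with each array left out. For antigen receptor pathway genes they went from 1 to 0 under median centring, no filter or no trend, to 3 with the block, and to 0 to 2 with each array left out. Values near 0 turned sign. Median centring gave -0.076 for Cd4, -0.022 for Cd3e and -0.030 for Napsa, and averaged probe sets gave -0.11 for Cd4. With each array left out, Cd4 ranged from -0.085 to 0.11, Cd3e from -0.017 to 0.15, Spib from -0.015 to 0.23 and Napsa from -0.21 to 0.33. Cr2, Cd83, Pou2f2, Swap70, Syk, Cd22, Cd180, Bcl11a, Cd79a, Ptpn6 and Cd55 kept their sign under every alternative in which they were tested. With the filter at the 60th percentile 23 members were tested, and Pou2f2, Cd180 and Bcl11a were too dim to be among them. Their size could depend on 1 array: with each array left out, Bcl11a (0.26) ranged from 0.02 to 0.49, Cd180 (0.53) from 0.24 to 0.83 and Ptpn6 (-0.75) from -1.12 to -0.38. The causes of these shifts were not tested. The calls that the day block changed are given beside the results.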
